A study of Homo sapiens with 12 samples.

Results

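CSF1, LIF, IL11, TNF, LTB, IL32, IL23A, PTX3 and TNC are 9 genes for cytokines and other secreted proteins of inflammation, chemokines left aside. They were taken as the rows with those symbols among the 56634 gene symbols of a bulk RNA-seq count table from HEK293 cells, an established human embryonic kidney line, and each of the 9 has a row. The study compared 4 treatments, with 3 biological replicates each, 12 libraries in all. Cells given TNFα with Senexin B received 1 µM Senexin B, which inhibits CDK8 and CDK19, for 1 h and then 10 ng/mL TNFα for 2 h. Cells given TNFα alone received 0.1% DMSO for 1 h and then the same TNFα for 2 h. Cells given Senexin B alone had 1 µM Senexin B for 3 h, and the DMSO group had 0.1% DMSO for 3 h. All groups are 1 cell line grown and plated in the same way. The DMSO content of the wells with Senexin B is not given in the labels.

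TNFα binds its receptor TNFRSF1A, and the kinase cascade that follows releases NF-kB from its inhibitors so that it enters the nucleus and switches on inflammatory genes. CDK8 and CDK19 are the alternative kinases of a module of Mediator, the complex that links transcription factors to RNA polymerase II, and they are known to modulate the transcription of genes that are being newly induced. Several genes of this set are known NF-kB targets in other cells, and their proteins carry the signal onward: CSF1 to macrophages, LIF and IL11 to cells with gp130 receptors, and the TNF and LTB proteins to cells with TNF family receptors.

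The promoters of the members with enough reads for testing are shown because NF-kB is the best-known route from TNFα to these genes. RefSeq windows (GRCh38.p14) of 250 bases before to 50 bases after the start were found for 7 of the 9 members. CSF1 and LIF had no entry in that table. The windows of PTX3 (chr3:157436600-157436899, + strand), IL32 (chr16:3065153-3065452, + strand), IL23A (chr12:56338634-56338933, + strand) and TNC (chr9:115118108-115118407, - strand) follow, 5′ to 3′. Capitals mark matches, on either strand, to the NF-kB consensus, the AP-1 motif TGANTCA or the CRE motif TGACGTCA.
PTX3: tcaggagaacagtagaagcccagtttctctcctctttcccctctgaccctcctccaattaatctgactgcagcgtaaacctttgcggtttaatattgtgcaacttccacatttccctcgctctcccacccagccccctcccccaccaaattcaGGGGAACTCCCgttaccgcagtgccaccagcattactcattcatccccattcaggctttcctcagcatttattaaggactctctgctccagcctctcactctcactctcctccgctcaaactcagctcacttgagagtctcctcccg
IL32: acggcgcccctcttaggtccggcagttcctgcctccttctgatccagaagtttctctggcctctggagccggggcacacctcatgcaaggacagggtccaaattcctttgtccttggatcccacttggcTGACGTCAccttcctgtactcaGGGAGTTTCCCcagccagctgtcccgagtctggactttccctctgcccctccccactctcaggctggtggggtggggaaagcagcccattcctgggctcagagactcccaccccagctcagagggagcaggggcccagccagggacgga
IL23A: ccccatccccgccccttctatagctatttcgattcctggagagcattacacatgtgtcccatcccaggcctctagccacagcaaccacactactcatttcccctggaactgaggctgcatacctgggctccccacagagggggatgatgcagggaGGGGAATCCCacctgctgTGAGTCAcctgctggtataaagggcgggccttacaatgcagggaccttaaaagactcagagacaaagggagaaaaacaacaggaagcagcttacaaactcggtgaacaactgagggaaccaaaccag
TNC: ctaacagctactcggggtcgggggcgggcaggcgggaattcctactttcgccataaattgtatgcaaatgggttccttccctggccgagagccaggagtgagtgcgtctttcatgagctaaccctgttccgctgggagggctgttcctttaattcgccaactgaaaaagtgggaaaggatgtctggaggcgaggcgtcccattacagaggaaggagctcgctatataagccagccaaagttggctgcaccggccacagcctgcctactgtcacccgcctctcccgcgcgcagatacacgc
PTX3 and IL32 each held a pair of NF-kB consensus matches that overlap, so that each pair is 1 stretch in capitals. The PTX3 stretch spanned positions -97 to -87 relative to the start and the IL32 stretch -99 to -89, and the IL32 window also held a CRE motif at -121 to -114. A further IL32 window, at an alternative start, held none of the 3 motifs. IL23A held an NF-kB match at -95 to -86 and an AP-1 motif at -77 to -71. The TNC window held none of the 3. Of the members with too few reads for testing, LTB held 2 NF-kB matches, at -86 to -77 and 39 to 48 of its first window, IL11 held an AP-1 motif at -96 to -90, and TNF held none of the 3. Of 35116 RefSeq windows of the same length, 11.3% held the NF-kB consensus, 7.71% the AP-1 motif and 1.85% the CRE. A match describes the letters in the window and does not show binding.

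Libraries held 8705277 to 50943310 counts, the highest in TNFα alone, library 2, which was 4.87 times the median of the others. A total of 3 counts in a library was taken as the detection floor and corresponds to 0.0594 to 0.341 CPM, the standard unit of counts scaled to library size. Floors and intervals here cover counting error only. Libraries 2 and 3 of TNFα with Senexin B stood apart: the chi-square of their counts against library 1, divided by its degrees of freedom, was 5.785 and 5.507, against 1.065 to 1.593 for other pairs within a group, and 1.211 between themselves. Their deviations from the gene means fell with transcript GC content (Spearman -0.683 and -0.682 across 13419 genes, which are not independent replicates), against -0.117 to 0.448 in the other 10 libraries. The main results on this group are also given with library 1 alone, or with offsets for transcript GC content and length (the GC correction). With library 1 alone, 1 library stands for the group and is assumed to vary like the libraries of the other 3 groups, from which the spread is estimated. NFKBIA, the classic early NF-kB target, was at 173 ± 12.4 CPM in TNFα with Senexin B, 270 ± 1.67 CPM in TNFα alone, 30.7 ± 1.56 CPM in Senexin B alone and 27.2 ± 1.94 CPM in DMSO (SD, n = 3 each). Of 6 markers of the HEK293 line, 4 averaged at least 1 CPM. Among 8 leukocyte markers, 4 were under the floor in every library, CD3E and MS4A1 were at 0, and the summed level was at most 1.44 CPM in any library. Of 6 fibroblast markers, 2 were under the floor in every library, and 1, COL1A1, averaged at least 1 CPM, at 14.8 CPM. Of 4 endothelial markers, 2 were under the floor in every library, and the summed level was at most 0.879 CPM.

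Enough reads for testing were found for 6 members, CSF1, TNC, PTX3, IL32, LIF and IL23A. TNF, LTB and IL11 did not pass the low-count filter and were below detection, with fewer than 3 counts, in 6, 9 and 9 of the 12 libraries. The other 6 reached 3 counts in every library, although IL23A had fewer than 10 counts in 8 libraries. Over the 9 members, 24 of the 108 values were below detection.

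Levels of different members were compared as RPKM over the union of exons, and their order can depend on the length used. The union exceeds the longest transcript in IL32 (3209 against 1381 bases) and TNC (9636 against 7641), for example. In PTX3 both are 1940 bases. Over the union, CSF1 was the highest member in TNFα alone, at 3.33 ± 0.199 RPKM. PTX3 followed at 2.94 ± 0.063 RPKM and TNC at 2.66 ± 0.0728 RPKM (SD, n = 3). IL32 at 1.32 ± 0.329 RPKM and LIF at 0.975 ± 0.151 RPKM came next and overlapped, as did IL23A at 0.690 ± 0.0916 RPKM and TNF at 0.621 ± 0.104 RPKM. LTB at 0.152 ± 0.143 RPKM and IL11 at 0.0817 ± 0.0153 RPKM were the lowest and overlapped each other. In DMSO the order was TNC at 2.01 ± 0.148 RPKM, CSF1 at 1.66 ± 0.106 RPKM, then LIF, PTX3, IL32 and IL23A between 0.807 and 0.534 RPKM, each overlapping its neighbour. IL11 followed at 0.101 ± 0.0527 RPKM, and LTB at 0.0188 RPKM and TNF at 0.0171 RPKM were the lowest and overlapped.

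**Figure D1:**
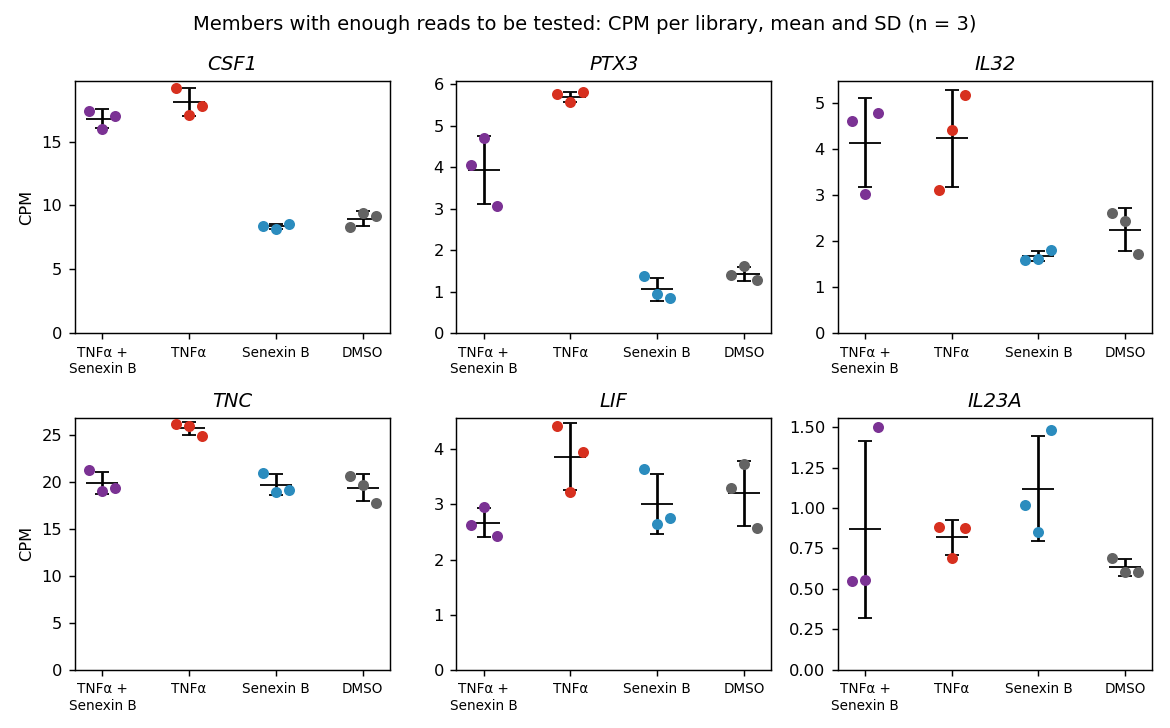
CPM (y axis) of the 6 tested genes in each library (points), with the mean and SD of the 3 libraries (bars), for TNFα with Senexin B, TNFα alone, Senexin B alone and DMSO (x axis). CSF1, PTX3 and IL32 are higher in both groups with TNFα than in both groups without it, whereas TNC is higher in TNFα alone only.

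The comparison of TNFα alone with DMSO shows which members TNFα changed in 2 h without the inhibitor. Of the 6 tested members, 4 rose with TNFα: PTX3 3.96-fold, CSF1 1.98-fold, IL32 1.94-fold and TNC 1.33-fold. LIF and IL23A did not pass the test, and none fell. Across all 14822 tested genes 2.02% were called in this comparison, 1.43% as higher in TNFα. The 3 libraries of TNFα alone and the 3 of DMSO did not overlap in 20.2% of all tested genes. The median log2 fold change was 0.68 over the 6 members and 0.00 over all tested genes. The members were chosen with earlier results of these data known, so this comparison with all tested genes does not test the set. Genes were called at an adjusted p under 0.05, from edgeR's quasi-likelihood test on all 12 libraries with Benjamini-Hochberg adjustment over all tested genes. In bulk RNA, fewer cells carrying a transcript and less of it per cell cannot be told apart.

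CSF1 (ENSG00000184371, GRCh38 chr1:109910242-109930992, + strand) encodes the growth factor that macrophages and their precursors need to survive and divide. In libraries 1, 2 and 3 it had 17.4, 16.0 and 17.0 CPM with TNFα and Senexin B, 19.2, 17.1 and 17.8 CPM with TNFα alone, 8.42, 8.13 and 8.55 CPM with Senexin B alone and 8.32, 9.40 and 9.21 CPM in DMSO. The 6 libraries with TNFα were all above the 6 without it, and within each of those sets the groups overlapped. In either direction, TNFα alone and DMSO did not overlap in 20.2% of all tested genes. The 2 groups with Senexin B did not overlap in 22.7%. CSF1 rose with TNFα by 0.99 (SE 0.0917) on the log2 scale without Senexin B (edgeR, adjusted p = 8.17e-09) and by 1.00 (SE 0.102) with it (adjusted p = 5.98e-08). The difference between these 2 effects, the interaction, was 0.02 (SE 0.141; adjusted p = 0.957). Senexin B gave a log2 fold change of -0.08 (SE 0.0799; adjusted p = 0.539) under TNFα and -0.10 (SE 0.117; adjusted p = 0.832) without it. Both TNFα calls for CSF1 held in 23 of 23 alternative analyses, with log2 fold changes of 0.93 to 1.04 without Senexin B and 0.98 to 1.14 with it. The receptor of CSF1, CSF1R, had only 30 counts in all 12 libraries together and was not tested.

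LIF (ENSG00000128342, chr22:30240447-30246851, - strand) encodes leukemia inhibitory factor, a cytokine of the IL-6 family that signals through LIFR and gp130. Its libraries had 2.63, 2.95 and 2.43 CPM with TNFα and Senexin B, 4.42, 3.23 and 3.95 CPM with TNFα alone, 3.64, 2.65 and 2.75 CPM with Senexin B alone and 3.29, 3.74 and 2.58 CPM in DMSO. LIF averaged 2.67 ± 0.262 CPM in TNFα with Senexin B, 3.87 ± 0.601 CPM in TNFα alone, 3.01 ± 0.547 CPM in Senexin B alone and 3.20 ± 0.583 CPM in DMSO (SD, n = 3 each). TNFα alone overlapped DMSO, and the log2 fold change was 0.17 (SE 0.179; edgeR, adjusted p = 0.824). All 3 libraries of TNFα with Senexin B were below all 3 of TNFα alone, as in 32.1% of all tested genes in either direction, but the log2 fold change of -0.43 (SE 0.183) did not pass (adjusted p = 0.0796). It passed only without TNFα library 2, at -0.64 (adjusted p = 0.0417), and was -0.30 (adjusted p = 0.327) after the GC correction and -0.42 (adjusted p = 0.618) with library 1 alone. LIF exons overlap those of the antisense genes LIF-AS1 and AC004264.1 in GENCODE 29. These were not analysed here, and the strand setting of the counting is not given in the sources used here, so reads from them cannot be told apart from LIF.

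IL11 (ENSG00000095752, chr19:55364389-55370463, - strand) encodes another cytokine of the IL-6 family, which signals through IL11RA and gp130. It had 1, 0 and 3 counts with TNFα and Senexin B, 2, 13 and 2 counts with TNFα alone, 0, 0 and 2 counts with Senexin B alone and 2, 2 and 5 counts in DMSO. The 13 counts in TNFα library 2 were 0.258 CPM in that deep library, near the 0.221 and 0.176 CPM of libraries 1 and 3. All 4 groups overlapped. Counts pooled over 3 libraries gave a ratio of 0.881 for TNFα alone over DMSO (95% exact counting interval 0.371 to 2.24), and a difference was not detectable at this depth. The interval for Senexin B alone over DMSO was 0.0268 to 1.23, around a ratio of 0.255 from 2 and 9 counts.

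The TNF gene (ENSG00000232810, chr6:31575567-31578336, + strand) encodes the same cytokine that was added to the cells, so its mRNA shows whether the cells held transcript of their own. It had 7, 6 and 7 counts with TNFα and Senexin B, 8, 51 and 14 counts with TNFα alone, 0, 0 and 0 counts with Senexin B alone and 0, 0 and 1 count in DMSO. On the CPM scale these were 0.767, 0.478 and 0.499 with TNFα and Senexin B and 0.884, 1.01 and 1.23 with TNFα alone, every one above the floor of its library. Every library without TNFα was below the floor. Pooled counts gave TNFα alone a 34.0-fold higher level than DMSO, with a 95% exact counting interval of 5.92 to 1360 because DMSO held 1 count. With Senexin B the TNF gene had 20 counts with TNFα, summed over 3 libraries, and 0 counts without it. In a fit with no low-count filter, in which 1.04% of 31538 genes were called for TNFα alone against DMSO and 6.38% for TNFα with Senexin B against Senexin B alone, both differences passed (edgeR, adjusted p = 1.88e-08 and 0.000225).

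TNF mRNA averaged 0.581 ± 0.161 CPM in TNFα with Senexin B and 1.04 ± 0.175 CPM in TNFα alone (SD, n = 3 each). The groups did not overlap, as in 32.1% of the genes with enough reads for testing, in either direction. The pooled ratio was 0.544 (95% exact counting interval 0.314 to 0.903). The unfiltered fit, which called 10.8% of genes in this comparison, gave a log2 fold change of -0.89 (SE 0.374) that did not pass (edgeR, adjusted p = 0.115). With library 1 alone and no filter it was -0.44 (SE 0.583; adjusted p = 0.918). The pooled ratio holds libraries 2 and 3, which stood apart.

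LTB (ENSG00000227507, chr6:31580525-31582522, - strand) lies beside TNF and encodes lymphotoxin beta, which anchors lymphotoxin alpha at the cell surface and acts through LTBR. It had 1, 1 and 3 counts with TNFα and Senexin B, 0, 22 and 3 counts with TNFα alone, 0, 0 and 0 counts with Senexin B alone and 1, 0 and 0 counts in DMSO. Most of its 31 counts came from the deep TNFα library 2, where it was at 0.436 CPM, while library 1 of the same group had none. The pooled ratio of TNFα alone over DMSO was 11.7 (95% exact counting interval 1.91 to 478), and the unfiltered fit did not call it (edgeR, adjusted p = 0.112). LTB passed in that fit when the TNFα effect was averaged over the 2 Senexin B states (edgeR, adjusted p = 0.021, with 2.79% of genes called). That average includes libraries 2 and 3 of TNFα with Senexin B, which stood apart. Library 1 of that group held 1 count, and with it alone the averaged log2 fold change was 3.47, against 3.62 with all libraries. A group at 1 count cannot decide whether the call holds. Its partner LTA, which lies in the same cluster, had 7 counts in all 12 libraries.

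**Figure D2:**
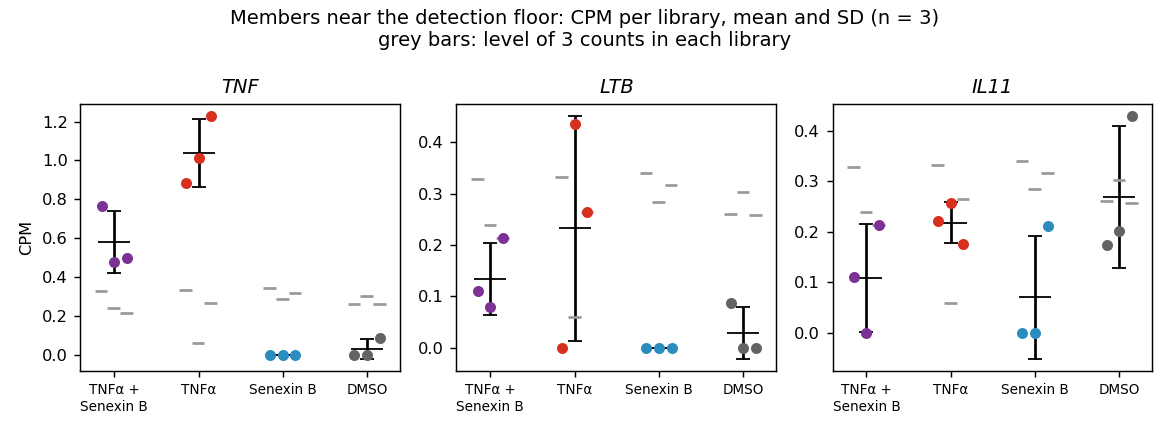
CPM (y axis) of TNF, LTB and IL11 in each library (points), with the mean and SD of 3 libraries (black bars), for TNFα with Senexin B, TNFα alone, Senexin B alone and DMSO (x axis), and the level of 3 counts in each library (grey bars). TNF mRNA is above the grey bars in all 6 libraries with TNFα and below them in all 6 without it.

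IL32 (ENSG00000008517, chr16:3065297-3082192, + strand) encodes interleukin 32, a cytokine made by lymphocytes and epithelial cells that induces TNF in monocytes. Its libraries had 4.60, 3.03 and 4.78 CPM with TNFα and Senexin B, 3.10, 4.42 and 5.18 CPM with TNFα alone, 1.59, 1.61 and 1.80 CPM with Senexin B alone and 2.60, 2.43 and 1.72 CPM in DMSO. The 6 libraries with TNFα were all above the 6 without it, but the 3 of TNFα alone spread from 3.10 to 5.18 CPM. Across all tested genes, 20.2% had no overlap between TNFα alone and DMSO, and 22.7% had none between the groups with Senexin B. IL32 rose with TNFα by 0.95 (SE 0.204) on the log2 scale without Senexin B (edgeR, adjusted p = 0.00542) and by 1.30 (SE 0.247) with it (adjusted p = 0.00112). The interaction was 0.35 (SE 0.335; adjusted p = 0.554). The call without Senexin B was lost without DMSO library 3, at 0.79 (adjusted p = 0.0954), and without TNFα library 2, at 0.92 (adjusted p = 0.0930). The call with Senexin B held in 22 of 22 alternatives that gave a value. Senexin B alone against DMSO gave -0.43 (SE 0.286; adjusted p = 0.616).

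IL23A (ENSG00000110944, chr12:56334174-56340410, + strand) encodes the subunit of interleukin 23 that pairs with the IL12B protein. It had 0.548, 0.557 and 1.5 CPM with TNFα and Senexin B, 0.884, 0.693 and 0.879 CPM with TNFα alone, 1.02, 0.851 and 1.48 CPM with Senexin B alone and 0.693, 0.606 and 0.602 CPM in DMSO. Library 3 of TNFα with Senexin B, with 21 counts, was far above libraries 1 and 2, with 5 and 7. All 3 libraries of Senexin B alone were above all 3 of DMSO, as in 20.4% of all tested genes in either direction, with a log2 fold change of 0.80 (SE 0.426) that did not pass (edgeR, adjusted p = 0.470). TNFα alone gave 0.24 (SE 0.396; adjusted p = 0.916) against DMSO. IL23A was called in none of the alternatives of these comparisons.

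PTX3 (ENSG00000163661, chr3:157436789-157443628, + strand) encodes pentraxin 3, a soluble pattern recognition protein of innate immunity. Its libraries had 4.05, 4.70 and 3.07 CPM with TNFα and Senexin B, 5.75, 5.57 and 5.80 CPM with TNFα alone, 1.37, 0.946 and 0.845 CPM with Senexin B alone and 1.39, 1.62 and 1.29 CPM in DMSO. The groups with TNFα lay above the groups without it, and TNFα with Senexin B lay wholly below TNFα alone. The latter 2 groups did not overlap in 32.1% of all tested genes, in either direction. This share was 20.2% for TNFα alone and DMSO, and 22.7% for the 2 groups with Senexin B. PTX3 had the largest TNFα effect of the 6 tested members, rising by 1.98 (SE 0.193) on the log2 scale without Senexin B (edgeR, adjusted p = 1.97e-08) and by 1.90 (SE 0.249) with it (adjusted p = 5.72e-06).

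Under TNFα, PTX3 fell by 0.53 (SE 0.150) on the log2 scale with Senexin B, to 3.94 ± 0.821 CPM in TNFα with Senexin B, against 5.70 ± 0.122 CPM in TNFα alone (edgeR, adjusted p = 0.0095). It fell by 0.55 (adjusted p = 0.00997) after the GC correction. With library 1 alone the value was -0.48 and did not pass (adjusted p = 0.390), and without library 3 of that group it was -0.35 (adjusted p = 0.146). Senexin B alone gave -0.45 (SE 0.316; adjusted p = 0.653) against DMSO, the interaction was -0.09 (SE 0.353; adjusted p = 0.920), and the Senexin B effect averaged over both TNFα states was -0.49 (SE 0.174; adjusted p = 0.0535). VEPH1, whose exons overlap PTX3 on the opposite strand, averaged 0.883 CPM in TNFα with Senexin B, 0.594 CPM in TNFα alone, 1.07 CPM in Senexin B alone and 0.889 CPM in DMSO, a level close to that of PTX3 in the groups without TNFα.

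TNC (ENSG00000041982, chr9:115019578-115118257, - strand) encodes tenascin C, a matrix glycoprotein that is laid down at sites of inflammation and wound repair. Its libraries had 21.3, 19.0 and 19.4 CPM with TNFα and Senexin B, 26.2, 25.9 and 24.9 CPM with TNFα alone, 20.9, 18.9 and 19.1 CPM with Senexin B alone and 20.6, 19.7 and 17.8 CPM in DMSO. The 3 libraries of TNFα alone were above all 9 others, and the other 3 groups overlapped one another. Of all tested genes, TNFα alone did not overlap DMSO in 20.2%, nor TNFα with Senexin B in 32.1%, in either direction. TNC rose with TNFα by 0.41 (SE 0.0736) on the log2 scale without Senexin B (edgeR, adjusted p = 0.000735). With Senexin B the TNFα effect was 0.01 (SE 0.0838; adjusted p = 0.936).

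Under TNFα, TNC fell by 0.38 (SE 0.0722) on the log2 scale with Senexin B, to 19.9 ± 1.19 CPM in TNFα with Senexin B, against 25.7 ± 0.702 CPM in TNFα alone (edgeR, adjusted p = 0.00045). It fell by 0.31 (adjusted p = 0.000601) after the GC correction, and with library 1 alone the value was -0.28 and did not pass (adjusted p = 0.213). Senexin B alone gave 0.02 (SE 0.0851; adjusted p = 0.971) against DMSO. The interaction of TNC was -0.40 (SE 0.112) and missed the threshold (adjusted p = 0.0512). It was -0.30 (adjusted p = 0.244) after the GC correction and -0.29 (adjusted p = 0.681) with library 1 alone, and it passed without library 1 of TNFα with Senexin B, at -0.44 (adjusted p = 0.00164). The TNC change was under 1.5-fold in every comparison.

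**Figure D3:**
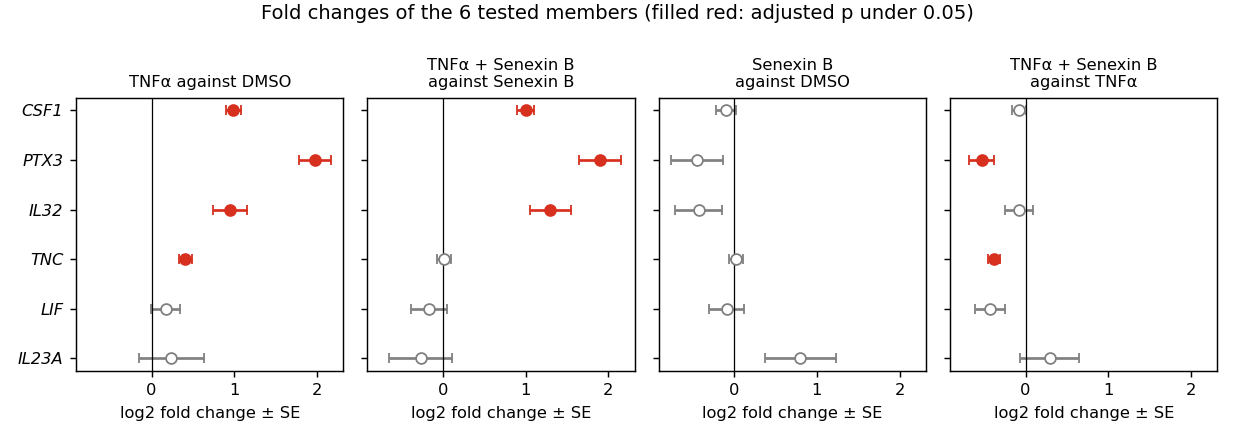
Log2 fold change with its SE (x axis) of the 6 tested genes (rows) in TNFα against DMSO, TNFα with Senexin B against Senexin B, Senexin B against DMSO, and TNFα with Senexin B against TNFα, with filled points for an adjusted p under 0.05. CSF1, PTX3 and IL32 are filled in both TNFα comparisons, TNC in the first TNFα comparison, and PTX3 and TNC in the last comparison.

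With Senexin B present throughout, TNFα raised 3 of the 6 tested members, CSF1, PTX3 and IL32, in TNFα with Senexin B against Senexin B alone. Across all tested genes 14.2% were called in this comparison, 7.38% as higher, and the 2 groups did not overlap in 22.7%. LIF and IL23A gave -0.17 (SE 0.218) and -0.27 (SE 0.384) on the log2 scale and did not pass (edgeR, adjusted p = 0.653 and 0.680). The 3 rises also passed after the GC correction, beside 5.04% of all genes called, and with library 1 alone, beside 1.43%. TNFα effects with and without Senexin B rest on different control libraries.

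None of the 6 tested members passed in Senexin B alone against DMSO, with 0 at an adjusted p under 0.05 by edgeR, 0 at an unadjusted p under 0.05, and 0 by DESeq2, which gave an adjusted p for only 2 of them. Across all tested genes 2.03% were called by edgeR and 1.80% by DESeq2. The median log2 fold change was -0.10 over the members and 0.00 over all tested genes. TNFα with Senexin B against TNFα alone gave 2 of 6 lower, PTX3 and TNC, and none higher, with LIF, CSF1, IL32 and IL23A not called. Across all tested genes 27.2% were called in this comparison and 13.9% were called as lower. After the GC correction the same 2 members passed beside 12.1% of all genes, and with library 1 alone none passed beside 2.64% of all genes.

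The interaction called none of the 6 tested members by edgeR, against 2.50% of all tested genes, with 1 member, TNC, at an unadjusted p under 0.05. DESeq2 gave no adjusted p for any member there. Averaged over the 2 Senexin B states, TNFα raised 4 of 6 members, CSF1 by 0.99, IL32 by 1.13, PTX3 by 1.94 and TNC by 0.21 on the log2 scale, beside 5.29% of all genes called (3.13% as higher). The averaged TNFα call of TNC held in 16 of 22 alternatives and was lost without DMSO library 3 (adjusted p = 0.0715), Senexin B library 2 (0.0726), Senexin B library 3 (0.0583) or TNFα library 2 (0.0756), by DESeq2 (0.0730), and with a fold of at least 1.5. Averaged over the 2 TNFα states, Senexin B lowered 1 of 6, TNC, by 0.18 on the log2 scale (SE 0.0559; edgeR, adjusted p = 0.0275), beside 15.6% of all genes called and 8.35% as lower. This TNC call held in 10 of 22 alternatives.

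**Figure D4:**
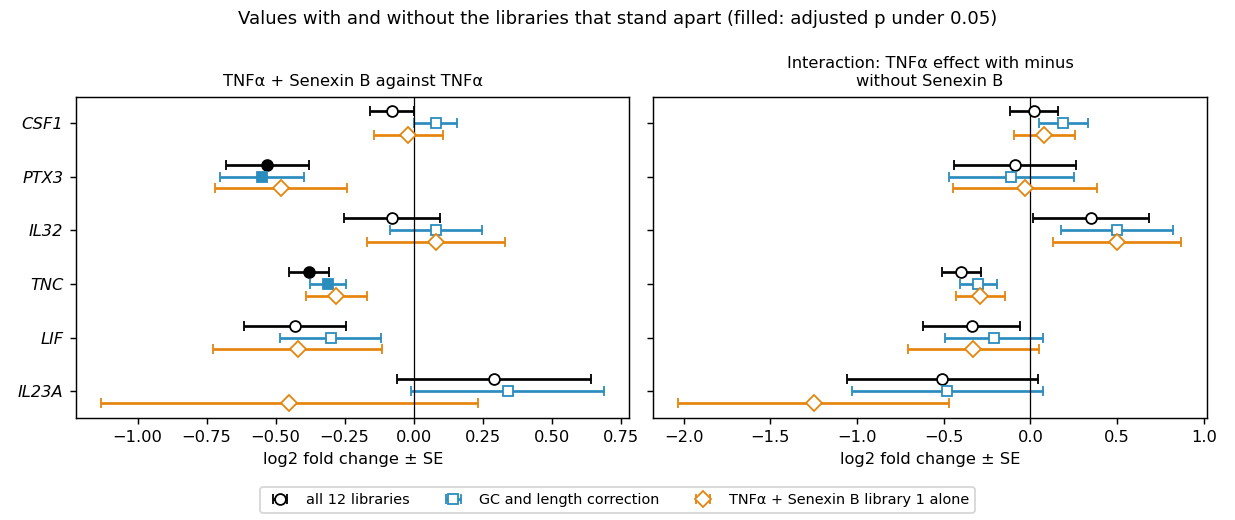
Log2 fold change with its SE (x axis) of the 6 tested genes (rows) for TNFα with Senexin B against TNFα (left) and the interaction (right), from all 12 libraries, after GC and length correction, and with library 1 alone standing for TNFα with Senexin B. Filled symbols have an adjusted p under 0.05, and PTX3 and TNC are filled on the left with all libraries and after the correction, but not with library 1 alone.

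The receptors of these cytokines were described from a list of 15, of which 9 were tested. IL6ST encodes gp130, the shared signalling receptor of LIF and IL11. It was the only one called in TNFα alone against DMSO, beside 2.02% of all tested genes. It averaged 164 ± 15.6 CPM in TNFα with Senexin B, 139 ± 2.46 CPM in TNFα alone, 98.3 ± 4.06 CPM in Senexin B alone and 103 ± 3.20 CPM in DMSO (SD, n = 3 each). IL6ST rose with TNFα by 0.44 (SE 0.0536) on the log2 scale without Senexin B (edgeR, adjusted p = 1.64e-06) and by 0.74 (SE 0.0551) with it (adjusted p = 7.88e-11). The second value was 0.59 after the GC correction and 0.57 with library 1 alone, both past the threshold. With Senexin B, ITGAV, an integrin subunit that takes part in binding matrix proteins, also rose with TNFα, by 0.31, and IL11RA fell by 0.41 (adjusted p = 0.000742 and 0.0243). ITGAV was 0.18 (adjusted p = 0.00399) after the GC correction and 0.17 (adjusted p = 0.230) with library 1 alone. IL11RA was -0.30 (adjusted p = 0.159) after the GC correction and -0.38 (adjusted p = 0.50) with library 1 alone. LIFR, the LIF receptor subunit, averaged 71.9 ± 5.65 CPM in TNFα with Senexin B, 63.6 ± 1.46 CPM in TNFα alone, 66.9 ± 1.29 CPM in Senexin B alone and 67.2 ± 3.08 CPM in DMSO. TNFRSF1A, the main TNFα receptor, averaged 26.8 ± 3.35 CPM in TNFα with Senexin B, 30.4 ± 0.605 CPM in TNFα alone, 28.3 ± 1.5 CPM in Senexin B alone and 30.3 ± 1.12 CPM in DMSO. TNFRSF1B and LTBR had 6 and 21 counts in all 12 libraries, and IL23R had 0, and these receptors were not tested. In TNFα with Senexin B against TNFα alone, 3 of the 9 receptors were higher and 2 lower, beside 27.2% of all tested genes called. LIFR was among the higher, at 0.19 on the log2 scale (edgeR, adjusted p = 0.0111). TNFRSF1A was among the lower, at -0.21 (adjusted p = 0.0274). After the GC correction 0 of the 9 were called, beside 12.1% of all genes. With library 1 alone the 3 higher ones, IL6ST, ITGAV and LIFR, were at 0.06, 0.08 and 0.04 on the log2 scale. The median log2 fold change of the 9 receptors was -0.01 in TNFα alone against DMSO and 0.12 in TNFα with Senexin B against TNFα alone, beside 0.00 over all tested genes in both.

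Of 44 related cytokines only 14 were tested. By edgeR with all libraries, none was called in TNFα alone against DMSO, beside 2.02% of all tested genes. None was called in TNFα with Senexin B against Senexin B alone (14.2% of all tested genes) or in Senexin B alone against DMSO (2.03%). KITLG, which encodes stem cell factor, averaged 9.90 ± 0.824 CPM in TNFα with Senexin B, 10.6 ± 0.658 CPM in TNFα alone, 8.77 ± 0.650 CPM in Senexin B alone and 11.6 ± 0.376 CPM in DMSO. Averaged over the 2 TNFα states KITLG fell with Senexin B by 0.25 (SE 0.0742; edgeR, adjusted p = 0.0214), beside 8.35% of all genes called as lower. The call was lost without DMSO library 2, Senexin B library 3, TNFα library 2 or library 2 of TNFα with Senexin B. It was also lost by DESeq2, with TNFα library 2 thinned to the median total of the others, and with a fold of at least 1.5. Without both libraries 2 and 3 of TNFα with Senexin B, it held with the low-count filter and was lost with no filter. After the GC correction KITLG was also called as lower in both single Senexin B comparisons. The median log2 fold change of the 14 was -0.02 in TNFα alone against DMSO and -0.07 in TNFα with Senexin B against TNFα alone. IL6 and IL1B had 1 count each in all 12 libraries and CSF2 had 0. In TNFα with Senexin B against TNFα alone, TGFB1, which encodes a growth factor that restrains immune cells, fell by 0.32 on the log2 scale (adjusted p = 0.000885), and this was -0.08 (adjusted p = 0.351) after the GC correction. Of 13 tested genes for JAK-STAT signalling below gp130, none was called with TNFα alone against DMSO, beside 2.02% of all tested genes. Their median there was 0.00. With Senexin B, 2 were higher with TNFα, JAK1 and SOCS2, and 1, TYK2, was lower, beside 14.2% of all tested genes called. After the GC correction JAK1 was 0.17 (adjusted p = 0.00607) and SOCS2 0.52 (adjusted p = 0.0295), and TYK2 was -0.06 and did not pass (adjusted p = 0.503). With library 1 alone JAK1 was 0.11, SOCS2 0.63 and TYK2 -0.05, and none passed (adjusted p = 0.613, 0.185 and 0.880).

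Of 10 tested genes that shed or process such proteins, none was called with TNFα alone against DMSO, beside 2.02% of all tested genes. Their median there was -0.02. In TNFα with Senexin B against TNFα alone 1 was called as higher and 3 as lower, beside 27.2% of all tested genes called, with a median of -0.20. After the GC correction 1 was higher and 1, TIMP3, was lower, beside 12.1% of all genes called. TIMP3, an inhibitor of the TNF-releasing protease ADAM17, was the only one called with Senexin B alone against DMSO, beside 2.03% of all tested genes. It averaged 42.6 ± 3.83 CPM in TNFα with Senexin B, 53.0 ± 0.781 CPM in TNFα alone, 43.1 ± 0.918 CPM in Senexin B alone and 53.4 ± 0.504 CPM in DMSO. TIMP3 fell with Senexin B by 0.31 (SE 0.0620) on the log2 scale without TNFα (edgeR, adjusted p = 0.00363) and by 0.32 (SE 0.0572) with it (adjusted p = 0.000199). The second value was -0.17 (adjusted p = 0.310) with library 1 alone. With Senexin B, FURIN, a protease that activates precursor proteins, fell with TNFα by 0.25 (adjusted p = 0.00809), and was -0.08 (adjusted p = 0.275) after the GC correction.

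Among 10 tested relatives of TNC and PTX3 (matrix proteins and pentraxins), CTGF, a matrix-associated growth factor, was called as lower with Senexin B both with and without TNFα. CTGF averaged 8.12 ± 0.787 CPM in TNFα with Senexin B, 14.4 ± 2.16 CPM in TNFα alone, 10.9 ± 0.650 CPM in Senexin B alone and 17.6 ± 0.516 CPM in DMSO. It fell with Senexin B by 0.69 (SE 0.115) on the log2 scale without TNFα (edgeR, adjusted p = 0.000322) and by 0.74 (SE 0.114) with it (adjusted p = 4.12e-05), and both calls held in 23 of 23 alternatives. CTGF also fell with TNFα alone against DMSO, by 0.38 (adjusted p = 0.0394), a call that held in 12 of 23 alternatives. In TNFα with Senexin B against TNFα alone, 6 of the 10 were called as lower, beside 13.9% of all tested genes, with a median of -0.24. After the GC correction 5 were lower, beside 7.56% of all genes called as lower. With library 1 alone CTGF was -0.67 on the log2 scale. NPTX1, a neuronal pentraxin, averaged 107 ± 7.56 CPM in TNFα with Senexin B and 135 ± 1.70 CPM in TNFα alone, fell by 0.33 (adjusted p = 1.67e-05), and passed with library 1 alone at -0.22 (adjusted p = 0.00514). NPTX2 and NPTXR, its close relatives, were also among the 6, at -0.30 and -0.33. NPTX2 was -0.15 (adjusted p = 0.0572) after the GC correction and -0.29 (adjusted p = 0.0616) with library 1 alone, and NPTXR was -0.15 (adjusted p = 0.277) and -0.26 (adjusted p = 0.412).

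The genes whose 4 group means were most like those of each member were ranked by the root mean square difference of centred log2 CPM over the 4 groups, among 14533 genes. For CSF1 the nearest was BDKRB2 at 0.0426, a bradykinin receptor with 1.79 CPM in TNFα with Senexin B, 1.81 CPM in TNFα alone, 0.855 CPM in Senexin B alone and 0.845 CPM in DMSO. IRAK2, a kinase of interleukin 1 receptor signalling, followed at 0.0581, with 10.5 CPM in TNFα with Senexin B, 10.9 CPM in TNFα alone, 4.84 CPM in Senexin B alone and 5.72 CPM in DMSO. IRAK2 was also the nearest to IL32, at 0.0535, and CSF1 was the fourth nearest to IL32, at 0.111. For PTX3 the nearest were ANKRD33B at 0.185, MAP3K8 at 0.200, CD83 at 0.221, SDC4 at 0.226 and MSX1 at 0.234. No gene matched its pattern as closely as those of the other members were matched. PTX3 also had the largest TNFα effect of the tested members, and the measure is not scaled to the size of the change. For TNC the nearest was ZNF385C at 0.0134, with 8.82 CPM in TNFα with Senexin B, 11.1 CPM in TNFα alone, 8.59 CPM in Senexin B alone and 8.52 CPM in DMSO. For LIF it was LINC00461 at 0.0181 and for IL23A it was SNRPGP15 at 0.0357. These are descriptions over 4 group means from shared libraries.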

How the data were processed

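RNA of 12 HEK293 cultures was sequenced in bulk. The file deposited by the authors holds raw counts for each gene symbol in each of the 12 samples, without normalization. Per the submitters' processing notes, STAR 2.4, SAMtools 1.2, featureCounts of Subread 1.4.6 and the build hg38 (GRCh38) were used. Annotation, strand setting and other parameters: not given in the sources used here. What follows was computed from the deposited counts. Genes were filtered with filterByExpr, which left 14822 of 56634, scaled by TMM and fitted with the quasi-likelihood model of edgeR 4.0.16 (R 4.3.3) on group means of all 12 libraries. P values of the two-sided F test had a Benjamini-Hochberg adjustment across the tested genes. CPM used the TMM-scaled totals, and RPKM the exon union lengths of GENCODE 29, matched by symbol. Gene positions and transcript GC content also came from GENCODE 29 (GRCh38), which matched 13419 (90.5%) of the tested genes. Genes without a match were fitted without correction. The GC and length correction used offsets per library from a loess fit (span 0.5). The biological coefficient of variation was 3.49%, and p values measure the spread between these cultures.

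Alternatives were median-of-ratios size factors, DESeq2 1.42.0, every gene with a count, a block for the replicate number, the GC and length correction, both of these together, a fit of the compared groups only, a minimum fold of 1.5, and the omission of each library or of both TNFα with Senexin B libraries 2 and 3. Thinning TNFα library 2 to the median total of the others, and the fit without libraries 2 and 3 with no filter, were chosen after seeing the data. The tests were checked on simulated data. The named genes are the 9 members, up to 4 called genes per list and comparison with the smallest adjusted p, and the 5 nearest genes per member. The receptors and cytokines near 0 counts, given by their counts alone, were chosen after their values were seen. The members and lists were chosen with earlier results of these data known. Pooled ratios have exact 95% intervals for counting error.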

Additional observations from a re-analysis of the deposited data

Results flagged for a closer look

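IL6ST, which encodes gp130, the signalling receptor shared by LIF and IL11, was set apart because its TNFα effect differed with and without Senexin B by a test of the difference itself. The interaction was 0.30 (SE 0.0771) on the log2 scale (edgeR, adjusted p = 0.0402), from TNFα effects of 0.74 with Senexin B and 0.44 without it. It was 0.11 (adjusted p = 0.456) after the GC and length correction and 0.12 (adjusted p = 0.727) with library 1 alone standing for TNFα with Senexin B. It passed in 6 of 22 alternatives.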

How the results depend on the processing

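Low counts limit TNF, LTB, IL11 and IL23A most, and the libraries 2 and 3 that stand apart limit every result on TNFα with Senexin B. The spread is estimated from all 12 libraries, also in comparisons that do not hold that group. In a fit of only the groups compared, TNFα alone against DMSO called 776 of 14526 genes, against 300 of 14822 with all libraries. Senexin B alone against DMSO called 742 of 14293 genes, against 301 of 14822. Of the members, 4 of 5 and 0 of 5 were called in those 2 fits. With a floor of 10 counts in place of 3, 41 of the 108 values were below detection. For TNFα with Senexin B against TNFα alone, the count of called members was 2, and it was 0 with a fold of at least 1.5, 0 without both libraries 2 and 3 with or without a low-count filter, 1 by DESeq2 (of 2 members with an adjusted p) and 1 to 3 on leaving out single libraries. It was 1 without library 3 of that group and 3 without TNFα library 2. For TNFα with Senexin B against Senexin B alone, DESeq2 called 1 of the 2 members with an adjusted p, against 3 by edgeR. The average Senexin B effect called 1 member, and 0 with a fold of at least 1.5, without both libraries, or by DESeq2, and 0 to 2 on leaving out single libraries. For TNFα alone against DMSO the count was 4, and 3 to 4 on leaving out single libraries. The cause of these changes was not tested.

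No pairing of the samples by replicate number was seen, with deviations of same-numbered libraries correlated by -0.0402 to 0.0941 over 18 pairs. Such correlations could miss a weak pairing. Across all 14822 tested genes the replicate block called 736 in the interaction, against 370 without it. With the replicate block the interaction called 1 member, TNC (-0.40, adjusted p = 0.0364), against 0 without it, and leaving out single libraries gave 0 to 1. The block changed no other call of a member, and the CTGF call in TNFα alone against DMSO was lost (adjusted p = 0.0629).

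Some values changed sign, none of them called on either side except those of LIFR and TYK2, which were called with all libraries. In TNFα with Senexin B against TNFα alone, the GC correction gave 0.08 for CSF1 and 0.08 for IL32, and -0.02 for LIFR and 0.02 for TYK2, which were no longer called. With the replicate block and the GC correction these were 0.07, 0.05, -0.03 and 0.02. IL32 was 0.08 without both libraries 2 and 3 (0.06 with no filter), and IL23A was -0.45 (-0.46 with no filter). On leaving out single libraries IL32 ran from -0.23 to 0.11 and IL23A from -0.44 to 0.57. In Senexin B alone against DMSO, TNC was -0.01 after the GC correction and ran from -0.04 to 0.07 on leaving out single libraries, and LIF ran from -0.24 to 0.02, with 0.02 without DMSO library 2. In TNFα with Senexin B against Senexin B alone, IL23A ran from -0.99 to 0.01 on leaving out single libraries, with 0.01 without library 2 of the first group, and TNC was -0.02 without its library 1 or without Senexin B library 2. In the interaction, CSF1 was -0.04 with TNFα library 2 thinned, -0.04 without that library and -0.01 without DMSO library 2, and PTX3 ran from -0.26 to 0.13, with 0.13 without Senexin B library 1 and 0.09 without library 3 of TNFα with Senexin B. With plain library totals, none of the 36 mean levels of members moved by more than its SD.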
